A study of Mus musculus with 18 samples.

Results

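The comparison described here set both Cre-treated groups of mouse cortical neural progenitor cells, pooled, against the mock-treated cells, and asked which transcripts moved alike after loss of Upf2 whether or not Trp53 was also floxed. Its members are the 12 Cre libraries of 18 in all, chosen by their labels, and the 6 mock libraries stand against them. Upf2 Cre cells came from Upf2fl/fl animals and received AAV9-Cre, an adeno-associated virus that carries the Cre recombinase. Upf2 Trp53 Cre cells came from Upf2fl/fl Trp53fl/fl animals and received the same virus. Upf2 mock cells came from Upf2fl/fl animals and received culture medium with no virus. Each group holds 6 libraries with the replicate numbers 3, 4, 5, 6, 8 and 9, and all are C57BL/6. The virus was removed after 14 hours, and total RNA was taken at 72 hours with an RNA integrity number of at least 9.0. There was no group with virus and no Cre among these libraries. Loss of Upf2, exposure to the virus and the activity of Cre thus cannot be told apart in any pooled difference. The libraries also held no mock group of the doubly floxed line. Differences of Upf2 Trp53 Cre cells from mock or from Upf2 Cre cells therefore include any difference between the lines, which was not tested. The labels mention no selection of recombined cells and name biological replicates without saying whether these are separate animals, so that p-values measure the spread between these cultures.

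Upf2 belongs to the core of NMD (nonsense-mediated mRNA decay), which removes transcripts whose reading frame ends well before their last exon junction. A terminating ribosome leaves the junction complex in place, Upf2 and Upf3 link that complex to the helicase Upf1, the kinase Smg1 phosphorylates Upf1, and Smg5 and Smg6 act in the decay itself. Besides faulty messages, the pathway degrades many normal ones, among them several stress response messages and the spliced remnants of genes that host small nucleolar RNAs (snoRNAs). Several NMD factors are themselves targets of the pathway. The protein of Trp53, p53, drives cell cycle arrest and death genes in stressed progenitors.

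Levels are transcript abundances in TPM, which are scaled for transcript length and to the same total in each library, and differences are on log2(TPM + 1), where low genes change less than their true ratio. The pooled difference is the mean of the Upf2 Cre and Upf2 Trp53 Cre group means minus the Upf2 mock mean, tested with limma over 15216 genes that reached 1 TPM in at least 6 libraries. Adjusted p-values are limma's with Benjamini-Hochberg adjustment over these genes, and a gene rose or fell where its adjusted p was under 0.05. A gene was said to move alike where it also differed from mock by at least 0.5 in the same direction in each Cre group, and where the difference between the Cre groups was at most 0.5 times the pooled difference. The 2 Cre groups share the 6 mock libraries, so a deviation of the mock libraries enters both differences. Genes under 1 TPM in every mock library can also pass the filter through their Cre libraries alone. Alikeness is a rule of size and not a test. Suclg2, which fell by 1.02, had a ratio of 0.4997 and lay just inside, and Ggh, with 0.5007, lay just outside.

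Some libraries stood apart before any comparison. On the first principal component, which held 46.2% of the variance, Upf2 Cre replicate 3 (-42.6) and Upf2 Trp53 Cre replicate 3 (-50.7) lay with the mock libraries. These ran from -60.6 to 15.0, with Upf2 mock replicate 8 the highest. The component did not separate Upf2 Trp53 Cre from mock cells. Of the Upf2 Trp53 Cre libraries only replicate 4, at 29.8, lay above every mock library. Genes rich in G and C were also relatively higher in some libraries than in others. The tested genes were sorted into 5 equal classes by transcript GC content, and the median of the highest class minus that of the lowest was -0.49 in Upf2 Cre replicate 3 and between 0.50 and 0.99 in the other Upf2 Cre libraries. It ran between -0.77 and 0.65 in Upf2 Trp53 Cre cells. In mock cells it ran between -1.07 and -0.33, except in replicate 8, at 0.38. Median pooled differences in the 5 classes, from lowest to highest GC content, were -0.31, -0.26, -0.07, 0.22 and 0.41. Values corrected for this trend are given below as GC-corrected for named genes whose call they end or whose value past the test they move by over 1.5 times, and the part of RNA composition in the differences was otherwise not tested. The radial glial markers Nes and Vim were high throughout, at means of 845, 658 and 616 TPM for Nes in Upf2 Cre, Upf2 Trp53 Cre and mock cells, whereas Eomes, which marks intermediate progenitors, averaged 1.11 TPM or less in each group. Pax6, of the same radial glial list, was low, at means of 4.17, 6.63 and 8.57 TPM in the same order. The microglial gene Aif1 was listed at 0 in all 18 libraries. In these bulk cultures, fewer cells of a type and less RNA per cell cannot be told apart.

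**Figure D1:**
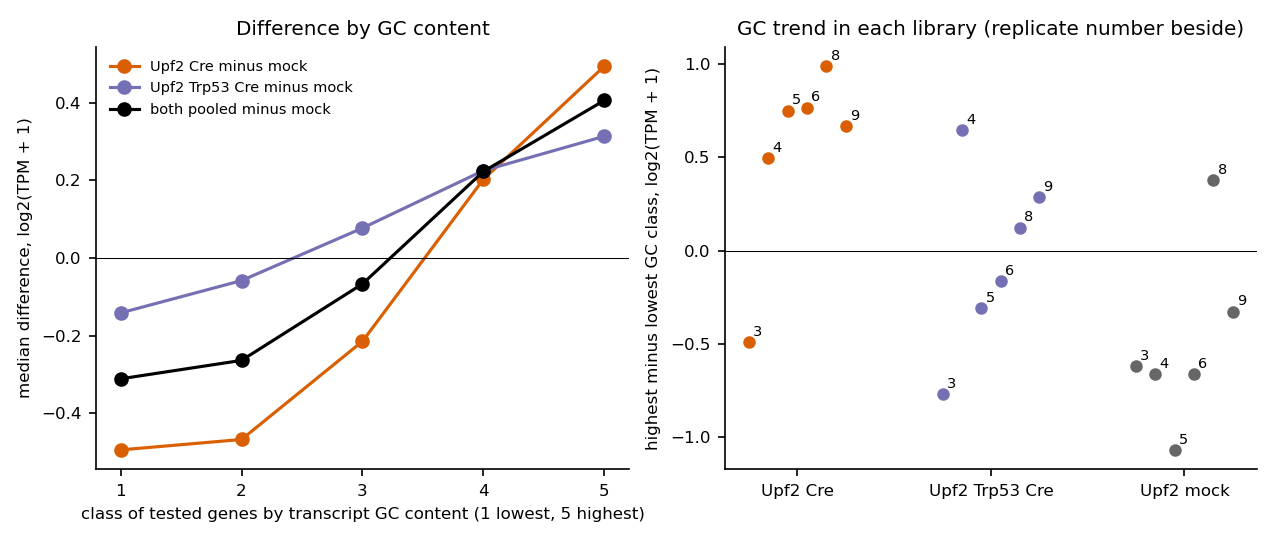
Left, median difference on log2(TPM + 1) in each of 5 classes of the tested genes by transcript GC content, for each Cre group minus mock and for the pooled difference. Right, the highest minus the lowest GC class in each library, with the replicate number beside it. The pooled median climbs from -0.31 to 0.41, and the libraries numbered 3 of both Cre groups lie among the mock libraries.

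The gene that both Cre groups share as the target, Upf2 on chromosome 2 (mm10, chr2:5951469-6056703, plus strand), was more abundant in Cre cells. Its lowest, median and highest TPM were 14.3, 19.9 and 27.6 in Upf2 Cre cells, 23.5, 33.1 and 44.4 in Upf2 Trp53 Cre cells, and 6.54, 11.0 and 15.8 in mock cells. Of the 12 Cre libraries, 11 lay above the highest mock library. The pooled difference was 1.17, with an exact two-sided permutation p of 2.15e-04 over the 12 Cre and 6 mock libraries and an adjusted p of 4.31e-04 over both targeted genes. The gene-level value counts exons outside the floxed segment and does not measure the deletion, so it neither checks the labels nor shows a loss of the protein. Trp53 was the contrary case: its levels were 86.6, 143 and 189 TPM in Upf2 Cre cells and 14.0, 16.7 and 18.4 TPM in Upf2 Trp53 Cre cells, against 81.4, 101 and 136 TPM in mock cells. All 6 Upf2 Trp53 Cre libraries lay below all others, as their labels would have it, while the Upf2 Cre and mock ranges overlapped. Its pooled difference of -1.09 joins -2.57 in Upf2 Trp53 Cre to 0.39 in Upf2 Cre cells, and it did not pass the exact two-sided permutation test (p = 0.098, adjusted p = 0.098).

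Over all tested genes, 2406 rose in the pooled comparison, 15.8% of those tested, and 1859 fell, 12.2%. Of these 4265 genes, 1394 moved alike. They were mostly upward: 1085 rose, 7.13% of the tested genes, and 309 fell, 2.03%. All 12 Cre libraries lay above all 6 mock libraries for 407 genes, 2.67%, and below them for 44 genes, 0.289%. Of the genes with no overlap, 342 of those above and 19 of those below moved alike. The difference between the Cre groups themselves passed the test for 2165 genes, 14.2%.

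The preponderance of rises among genes that moved alike depended on the scaling. With median-ratio scaling 840 moved alike upward and 811 downward, and with quantile normalization 879 and 796, against 1085 and 309 on TPM as deposited. With the GC trend removed the counts were 692 and 488, and 580 of the 1394 genes met the rule both ways. None of the 1394 changed sign after that correction, and 774 of the 1085 upward and 235 of the 309 downward genes still passed the test. Leaving out the 3 libraries numbered 3 gave 4017 rises and 3729 falls, and 974 of the 1085 and 232 of the 309 still moved alike. With single libraries left out, falls numbered from 886 (without mock replicate 5) to 3236 (without Upf2 Cre replicate 3), and falls that moved alike from 144 (without Upf2 Trp53 Cre replicate 4) to 710 (without mock replicate 8). Rises that moved alike numbered from 940 to 1294.

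Genes that moved alike upward had a median pooled difference of 0.86, with a median of 0.90 in Upf2 Cre cells and 0.83 in Upf2 Trp53 Cre cells. Those that moved alike downward had a median of -0.84, with -0.95 in Upf2 Cre cells and -0.72 in Upf2 Trp53 Cre cells. The median over all tested genes was -0.01. Meeting the rule did not mean that the Cre groups were equal: the median half-width of the 95% interval of their difference was 0.420 for the upward and 0.566 for the downward genes. For 10 of the 1394 genes, Gadd45b, Trib3 and Rassf1 among them, that difference passed the test, and all 10 were higher in Upf2 Trp53 Cre cells.

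**Figure D2:**
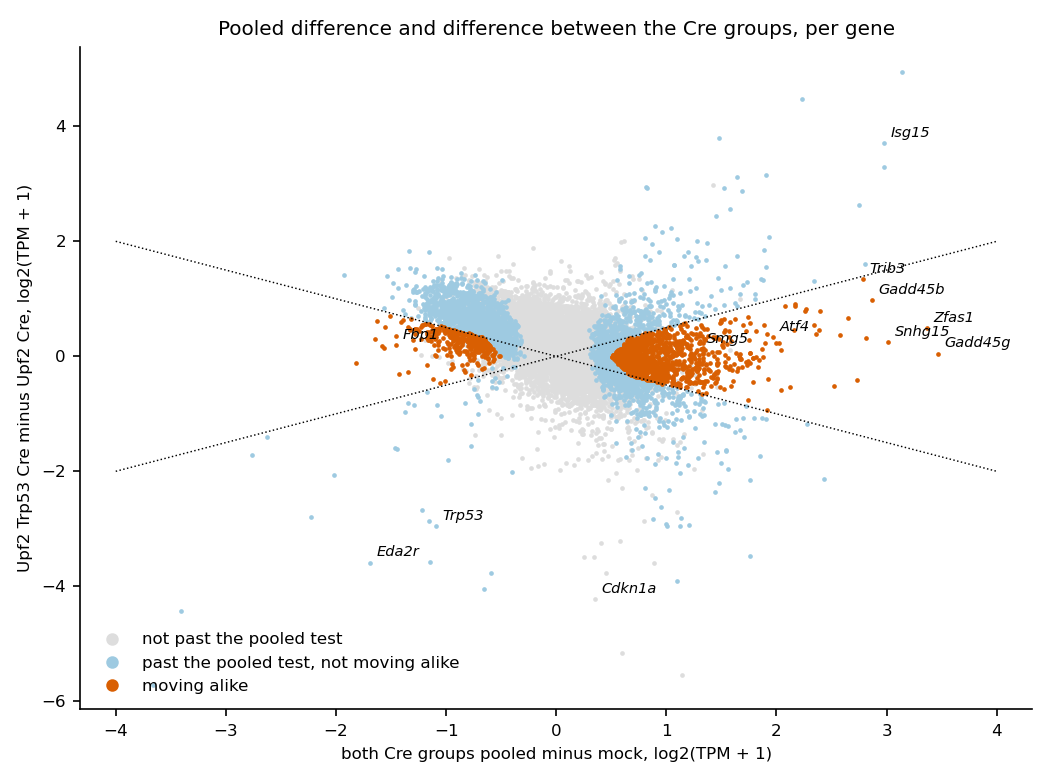
Each point is 1 of the 15216 tested genes, placed by its pooled difference (both Cre groups minus mock, x axis) and by the difference between the Cre groups (Upf2 Trp53 Cre minus Upf2 Cre, y axis), both on log2(TPM + 1). Dotted lines mark a ratio of 0.5 between the axes. Genes that moved alike lie between them on either side, with Gadd45g at 3.46 and 0.05, whereas Trp53, Eda2r and Cdkn1a lie far below and Isg15 far above.

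The largest shared rise was in Gadd45g on chromosome 13, which encodes a growth arrest and DNA damage protein and is known as an NMD target. It ranged over 397, 681 and 1045 TPM (lowest, median, highest) in Upf2 Cre cells and over 448, 668 and 1012 TPM in Upf2 Trp53 Cre cells, against 27.4, 55.8 and 180 TPM in mock cells. The 12 largest rises named here and in the next paragraphs were chosen among genes with no overlap between Cre and mock libraries. The absence of overlap is thus a condition of the choice for each of them and no further result. The highest mock value of Gadd45g was that of replicate 3. The pooled difference was 3.46 ± 0.32 (SE, 12 Cre and 6 mock libraries, limma adjusted p = 4.4e-07), with 3.44 in Upf2 Cre cells and 3.49 in Upf2 Trp53 Cre cells. Gadd45b, of the same family, on chromosome 10, was at 15.9, 22.2 and 39.9 TPM in Upf2 Cre and 31.9, 48.0 and 64.6 TPM in Upf2 Trp53 Cre cells, against 2.07, 3.63 and 5.77 TPM in mock cells. Its pooled difference was 2.86 ± 0.20 (SE, limma adjusted p = 1.3e-08), although the rise was larger by 0.97 in Upf2 Trp53 Cre than in Upf2 Cre cells (limma adjusted p = 0.015).

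Zfas1, a spliced non-coding gene that hosts snoRNAs (chr2:167062934-167065862, plus strand), came second. It was at 447, 715 and 1389 TPM in Upf2 Cre and 907, 1043 and 1259 TPM in Upf2 Trp53 Cre cells, against 60.7, 67.3 and 275 TPM in mock cells. All Cre values exceeded all mock values, and the highest mock value was again that of replicate 3. The pooled difference was 3.36 ± 0.28 (SE, limma adjusted p = 1e-07). A second host gene, Snhg15 on chromosome 11, stood at 127, 201 and 342 TPM in Upf2 Cre and 180, 228 and 303 TPM in Upf2 Trp53 Cre cells, against 13.0, 29.1 and 35.0 TPM in mock cells. Its groups did not overlap, with a pooled difference of 3.01 ± 0.22 (SE, limma adjusted p = 1.5e-08).

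Stress response genes made up several of the other large rises. Trib3, a pseudokinase induced by and acting against Atf4, was at 14.1, 17.8 and 47.8 TPM in Upf2 Cre and 32.4, 39.9 and 234 TPM in Upf2 Trp53 Cre cells, against 1.54, 4.07 and 7.84 TPM in mock cells. Both highest Cre values were in the libraries numbered 3, and the rise was larger by 1.34 in Upf2 Trp53 Cre cells (limma adjusted p = 0.040). Ddit3, the stress transcription factor CHOP, was at 29.4, 33.8 and 106 TPM in Upf2 Cre and 47.3, 56.0 and 147 TPM in Upf2 Trp53 Cre cells, against 4.80, 6.41 and 15.96 TPM in mock cells. Its lowest Cre library lay above its highest mock library, with a pooled difference of 2.65 ± 0.28 (SE, limma adjusted p = 3.3e-06). Osgin1, an oxidative stress-induced growth inhibitor, reached 1.49, 9.71 and 26.7 TPM in Upf2 Cre and 1.36, 7.19 and 11.2 TPM in Upf2 Trp53 Cre cells, against 0.111, 0.178 and 0.693 TPM in mock cells. Every mock library was thus under 1 TPM and every Cre library above it. Osgin1 therefore passed the filter through its Cre libraries alone, and this split follows from the filter and the choice and is no further result.

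The other named rises were of diverse function. Cela1, a serine protease of the elastase family, rose by 2.58, Tnfrsf12a, the receptor of the cytokine TWEAK, by 2.52, and Rgs16, a regulator of G protein signalling, by 2.36. Tnfrsf12a was at 85.7, 393 and 439 TPM in Upf2 Cre and 105, 220 and 245 TPM in Upf2 Trp53 Cre cells, against 2.99, 58.8 and 71.3 TPM in mock cells. Its lowest mock value, in replicate 3, lay far below the other 5. Rassf1, of a family of Ras effectors, and the snoRNA host gene Snhg5 each rose by 2.17. Rassf1 was at 12.7, 26.9 and 57.1 TPM in Upf2 Cre and 41.0, 46.9 and 64.7 TPM in Upf2 Trp53 Cre cells, against 6.48, 7.23 and 7.80 TPM in mock cells, without overlap.

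**Figure D3:**
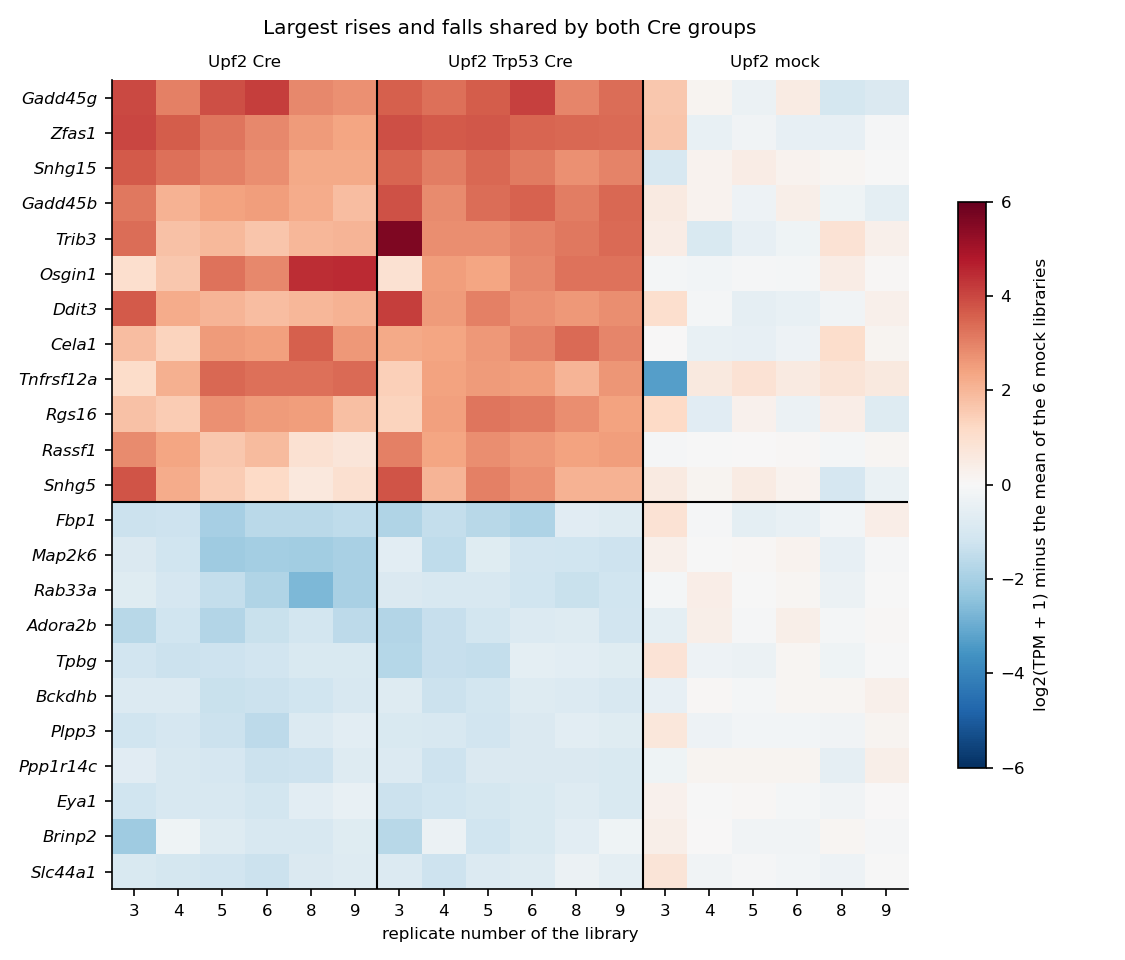
Each column is 1 library, grouped as Upf2 Cre, Upf2 Trp53 Cre and Upf2 mock, and each line 1 of the 12 largest rises or of 11 of the 12 largest falls among genes that moved alike without overlap. Colour gives log2(TPM + 1) minus the mean of the 6 mock libraries. The 12 rises range from 3.46 (Gadd45g) to 2.17 (Snhg5) and the 11 falls from -1.45 (Fbp1) to -0.88 (Slc44a1), so that the rises are the larger changes.

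Among genes with no overlap between Cre and mock libraries, the falls were smaller than the rises. Fbp1, a gluconeogenic phosphatase, was at 0.449, 0.967 and 1.45 TPM in Upf2 Cre and 0.627, 0.987 and 2.60 TPM in Upf2 Trp53 Cre cells, against 2.85, 4.32 and 9.65 TPM in mock cells, a pooled difference of -1.45 ± 0.22 (SE, limma adjusted p = 1.1e-04). Map2k6, a kinase upstream of p38, fell by 1.40, Rab33a, a small GTPase, by 1.35, and Adora2b, an adenosine receptor, by 1.30. Tpbg, a membrane glycoprotein gene of the Wnt pathway, fell by 1.09, and Bckdhb, a subunit of the branched-chain ketoacid dehydrogenase, by 1.01.

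Plpp3 (chr4:105157347-105232764, plus strand), a phosphatase of bioactive lipids that is strong in radial glia and astrocytes, was the most abundant of them. It stood at 117, 160 and 220 TPM in Upf2 Cre and 153, 188 and 224 TPM in Upf2 Trp53 Cre cells, against 284, 306 and 549 TPM in mock cells. The lowest mock library exceeded the highest Cre library, with a pooled difference of -0.98 ± 0.16 (SE, limma adjusted p = 1.9e-04). Ppp1r14c, an inhibitor of protein phosphatase 1, the transcriptional coactivator Eya1, the neural gene Brinp2 and the choline transporter gene Slc44a1 fell by between 0.96 and 0.88. GC-corrected, Slc44a1 differed by -0.55 (limma adjusted p = 0.029).

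Among the 14 genes of the NMD machinery, 8 rose and none fell, against 15.8% and 12.2% of all tested genes, and 5 moved alike, among them Upf1, Smg5, Smg6 and Smg9. The median pooled difference of the 14 was 0.45. The same shares of all tested genes stand beside the counts of every list below. Smg5 (chr3:88336260-88362338, plus strand), which recruits decay enzymes to phosphorylated Upf1, was at 100, 113 and 176 TPM in Upf2 Cre and 105, 137 and 177 TPM in Upf2 Trp53 Cre cells, against 40.6, 52.2 and 58.2 TPM in mock cells. Its Cre and mock libraries did not overlap, and it rose by 1.31 ± 0.14 (SE, limma adjusted p = 3e-06). Smg9, a regulator of the kinase Smg1, rose by 1.08, the endonuclease gene Smg6 by 0.81 and the helicase gene Upf1 by 0.77. After the GC correction Smg9 differed by 0.58 (limma adjusted p = 8.9e-04) and Upf1 by 0.33 (adjusted p = 0.026). In all 7 of the 14 factors then rose. Of the 10 exon junction complex genes, 2 rose and 3 fell, and none moved alike.

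Of 28 genes described elsewhere as NMD targets, 8 rose, 1 fell and 7 moved alike, all 7 upward. Besides Gadd45b and Gadd45g these were Gadd45a, which rose by 1.04, the synaptic immediate early gene Arc by 1.46, the autophagy gene Gabarapl1 by 1.27, the antioxidant enzyme gene Gpx1 by 1.21 and the phospholipid enzyme gene Pisd by 0.78. Gabarapl1 was at 300, 336 and 410 TPM in Upf2 Cre and 367, 417 and 470 TPM in Upf2 Trp53 Cre cells, against 130, 160 and 186 TPM in mock cells. These groups lay well apart in every library. After the GC correction Gpx1 differed by 0.79, and Arc (0.99, limma adjusted p = 0.076) and Pisd (0.50, adjusted p = 0.059) no longer passed. Arc also did not pass with no filter on low values (adjusted p = 0.058). The median of the 28 was 0.25, so that most of the list did not share the size of these rises.

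Host genes of snoRNAs followed. Of 22 listed, 18 were tested, 10 rose, 1 fell and 7 moved alike upward, and the median pooled difference was 0.85. Snhg12 rose by 2.40, Snhg17 by 1.58, Snhg8 by 1.26 and Epb41l4aos by 1.10. Snhg8 was at 347, 430 and 553 TPM in Upf2 Cre and 352, 418 and 522 TPM in Upf2 Trp53 Cre cells, against 142, 170 and 246 TPM in mock cells, again without overlap. Gas5, a host gene long known as an NMD target, did not move alike: it was at 80.9, 110 and 323 TPM in Upf2 Cre and 157, 227 and 359 TPM in Upf2 Trp53 Cre cells, against 57.5, 93.7 and 174 TPM in mock cells. Its ranges overlapped, its pooled difference of 0.85 (limma adjusted p = 0.021) joined 0.42 in Upf2 Cre to 1.29 in Upf2 Trp53 Cre cells, and without mock replicate 4 it was 0.82 with an adjusted p of 0.0506. Its adjusted p was 0.053 with the 12 Cre libraries as 1 group and 0.051 with no filter on low values. Other settings gave lower adjusted p-values for Gas5: 1.2e-04 GC-corrected (1.18), 7.0e-04 without the 3 libraries numbered 3 (0.83) and 0.011 with median-ratio scaling (0.86).

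A count over the annotation set non-coding hosts beside coding ones. The classes follow the annotated biotype, so that single members of the non-coding class, the gene that fell among them, may still encode a protein. Of 26 tested genes of a non-coding biotype that hold an annotated snoRNA, 13 rose, 1 fell and 10 moved alike upward, with a median of 0.78. Of 209 tested protein-coding genes that hold one, 9 rose and 48 fell, 7 moved alike upward and 5 downward, and the median was -0.12. After the GC correction 16 of the 26 rose and 1 fell, whereas 21 of the 209 rose and 49 fell. Genes without a common name were among the non-coding hosts that moved alike, such as 2410006H16Rik, with a pooled difference of 2.39, and 1810032O08Rik, with 2.27, each holding 3 annotated snoRNAs.

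**Figure D4:**
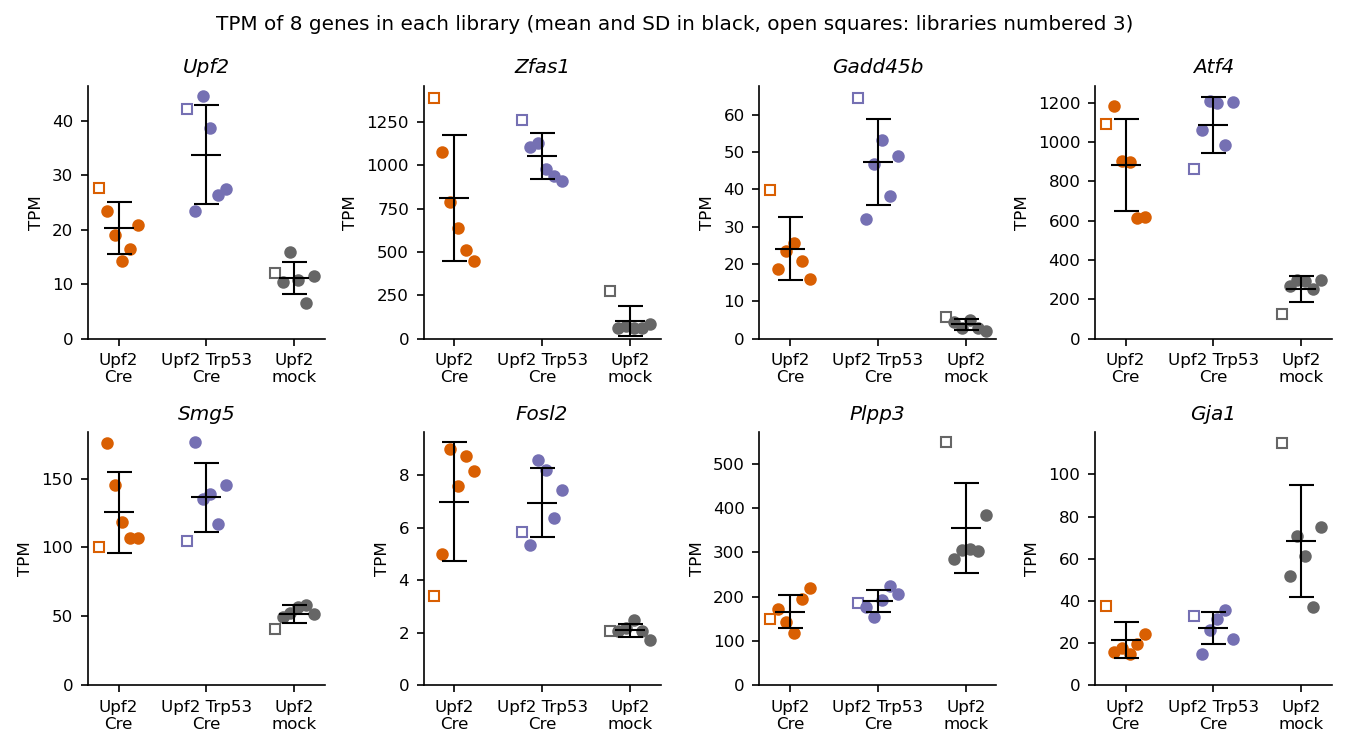
TPM of 8 genes in each of the 18 libraries, with the mean and SD of each group in black and the libraries numbered 3 as open squares. Zfas1, Gadd45b, Atf4, Smg5 and Fosl2 are higher in all 12 Cre libraries than in all 6 mock libraries, Plpp3 is lower in all 12, and Upf2 and Gja1 overlap in part.

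Atf4 (chr15:80255184-80257541, plus strand) encodes the transcription factor at the centre of the integrated stress response, which slows translation and raises amino acid supply. It was at 612, 898 and 1183 TPM in Upf2 Cre and 861, 1129 and 1210 TPM in Upf2 Trp53 Cre cells, against 124, 278 and 296 TPM in mock cells. Its lowest Cre library lay above its highest mock library by more than the mock range, and it rose by 1.97 ± 0.19 (SE, limma adjusted p = 5.5e-07). Of the 18 tested genes of transcription and feedback in this response, 11 rose and none fell, and 6 moved alike, namely Atf4, Atf5, Ddit3, Trib3, Ppp1r15a and Chac1. Ppp1r15a, the phosphatase subunit that restores translation, was at 51.4, 69.2 and 75.1 TPM in Upf2 Cre and 66.0, 76.2 and 94.9 TPM in Upf2 Trp53 Cre cells, against 14.2, 15.8 and 21.1 TPM in mock cells. It rose by 2.03 ± 0.12 without overlap (SE, limma adjusted p = 3.1e-09). Chac1, a glutathione-degrading enzyme gene, rose by 2.34 and Atf5, an Atf4 relative, by 1.28 (GC-corrected 0.76, limma adjusted p = 0.045). The median of the 18 was 1.33, with 1.00 in Upf2 Cre cells and 1.25 in Upf2 Trp53 Cre cells.

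Amino acid genes downstream of Atf4 took part unevenly. Of 16 amino acid transporters 4 rose and none fell, 3 of them alike: Slc7a5 by 1.22 and its partner Slc3a2 by 0.95, which together import large neutral amino acids, and the serine and alanine carrier gene Slc1a4 by 1.03. Slc1a4 was at 222, 282 and 344 TPM in Upf2 Cre and 296, 375 and 398 TPM in Upf2 Trp53 Cre cells, against 131, 138 and 207 TPM in mock cells. Its groups did not overlap. Of 21 amino acid and one-carbon synthesis genes 3 rose and 2 fell, and Shmt2, a mitochondrial serine enzyme gene, moved alike at 0.80 (GC-corrected 0.38, limma adjusted p = 0.070). Asns, the asparagine synthetase gene, was at 100, 110 and 352 TPM in Upf2 Cre and 222, 318 and 809 TPM in Upf2 Trp53 Cre cells, against 98.4, 150 and 215 TPM in mock cells. It did not pass the pooled test (0.57, limma adjusted p = 0.12; GC-corrected 0.76, adjusted p = 0.030). Among 20 cytosolic tRNA synthetases 5 rose and 2 fell, against 15.8% and 12.2% of all tested genes, and the only one that moved alike did so downward. After the GC correction 1 of the 20 rose and 2 fell. Without the 3 libraries numbered 3 the counts were 4 rises and 7 falls.

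The promoters of 3 of the rising stress and amino acid genes are shown because each holds the motif searched in these lists, TGATGNAA on either strand, the core of the element that Atf4 binds with C/EBP partners. Each sequence runs from 250 bases before to 50 after the start in RefSeq (GRCm38.p6), 5′ to 3′ on the gene's strand, with the match in capitals. Slc1a4 lies at chr11:20332664-20332963 (minus strand), Trib3 at chr2:152344011-152344310 (minus strand) and Chac1 at chr2:119350992-119351291 (plus strand).
Slc1a4: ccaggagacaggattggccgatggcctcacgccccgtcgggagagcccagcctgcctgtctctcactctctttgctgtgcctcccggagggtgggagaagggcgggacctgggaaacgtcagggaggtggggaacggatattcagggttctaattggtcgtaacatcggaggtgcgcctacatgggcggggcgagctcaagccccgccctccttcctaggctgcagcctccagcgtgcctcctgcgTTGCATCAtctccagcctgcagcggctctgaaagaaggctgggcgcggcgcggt
Trib3: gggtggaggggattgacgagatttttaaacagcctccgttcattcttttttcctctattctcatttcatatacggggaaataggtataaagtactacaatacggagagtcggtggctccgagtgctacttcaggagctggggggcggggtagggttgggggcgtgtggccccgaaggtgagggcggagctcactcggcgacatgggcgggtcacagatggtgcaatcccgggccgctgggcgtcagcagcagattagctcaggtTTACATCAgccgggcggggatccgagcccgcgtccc
Chac1: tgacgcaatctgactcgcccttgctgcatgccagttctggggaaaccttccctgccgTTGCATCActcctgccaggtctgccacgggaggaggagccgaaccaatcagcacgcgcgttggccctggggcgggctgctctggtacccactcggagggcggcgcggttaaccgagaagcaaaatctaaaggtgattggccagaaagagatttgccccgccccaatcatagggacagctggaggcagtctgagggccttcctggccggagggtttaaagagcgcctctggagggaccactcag
The motif occurred in 7 of 16 promoters of the stress response list, 43.8%, and in 17 of 56 promoters of that list and the 3 amino acid and tRNA synthetase lists together, 30.4%. These counts include members that did not rise. Of the members that moved alike upward, it occurred in 2 of 6 stress response promoters, 1 of 2 transporter promoters and 0 of 1 amino acid synthesis promoters. Over all 27025 promoters of the table, 1219 held it, 4.51%, and 21 did of the 824 genes that moved alike upward and had a promoter there, 2.55%. A match describes letters in this window and not a bound site.

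Negative regulators of the growth kinase complex mTORC1 rose in 5 of 12 tested genes and fell in 1, and 3 moved alike upward. Akt1s1, which encodes an inhibitory subunit of the complex, rose by 0.93, and the amino acid sensing genes Castor1 and Nprl3 by 0.73 and 0.66. Castor1 was at most 0.874 TPM in mock cells and passed the filter through its Cre libraries alone. After the GC correction Akt1s1 differed by 0.42 (limma adjusted p = 0.048), Castor1 by 0.31 (adjusted p = 0.13), which ends its call, and no gene of the list met the rule for moving alike. Of 24 genes of the unfolded protein response and of endoplasmic reticulum chaperones, 4 rose and 4 fell, and 1 moved alike, none after the GC correction. With median-ratio scaling 4 rose and 6 fell.

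Immediate early genes encode short-lived transcription factors and phosphatases induced by growth and stress signals. Of the 44 lists theirs held the most members that moved alike on TPM as deposited. Of 25 tested, 13 rose, 1 fell and 12 moved alike upward, with medians of 0.85 in Upf2 Cre cells and 0.80 in Upf2 Trp53 Cre cells and a pooled median of 0.78. Fosl2, a Fos relative (chr5:32135801-32157842, plus strand), was at 3.40, 7.89 and 9.00 TPM in Upf2 Cre and 5.36, 6.90 and 8.60 TPM in Upf2 Trp53 Cre cells, against 1.71, 2.07 and 2.49 TPM in mock cells. It rose by 1.33 ± 0.17 without overlap (SE, limma adjusted p = 1.6e-05). Junb, another AP-1 subunit, was at 5.96, 13.7 and 24.5 TPM in Upf2 Cre and 7.20, 10.8 and 20.7 TPM in Upf2 Trp53 Cre cells, against 1.20, 3.34 and 4.39 TPM in mock cells. It rose by 1.76 ± 0.25 (SE, limma adjusted p = 6.5e-05), and all Cre values again lay above all mock values. Fosl1 rose by 2.04, Maff by 1.59, Klf4 by 1.58, Ier2 by 1.30, Nr4a1 by 1.06, Fos by 0.94 and Fosb by 0.71. The phosphatase gene Dusp1 rose by 0.93. After the GC correction 9 of the 25 rose and 8 moved alike, fewer than the 9 snoRNA host genes that then did. Ier2 differed by 0.79 with that correction, and Nr4a1 (0.65, limma adjusted p = 0.051) and Fosb (0.35, adjusted p = 0.069) no longer passed.

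The antioxidant, autophagy and matrix lists held single shared rises. Of 20 Nrf2-dependent genes 3 rose and 3 fell, shares near those of all tested genes, and 2 moved alike, the haem oxygenase gene Hmox1 at 1.27 and the sulfiredoxin gene Srxn1 at 1.09. Hmox1 was at 151, 260 and 421 TPM in Upf2 Cre and 206, 239 and 300 TPM in Upf2 Trp53 Cre cells, against 83.4, 98.3 and 150 TPM in mock cells. The lowest Cre value thus lay just above the highest mock value. Of 23 autophagy and lysosome genes 7 rose and 1 fell, and 4 moved alike, among them the cargo receptor gene Sqstm1 at 0.72 and the transcription factor gene Tfe3 at 0.79. After the GC correction Sqstm1 differed by 0.47 (limma adjusted p = 0.023), and none of the 23 met the rule for moving alike. Of 22 matrix genes 8 rose and none fell, and Tnc, Lama4 and Lama5 moved alike at 1.10, 0.92 and 0.65 (GC-corrected 0.16 for Lama5, limma adjusted p = 0.38). Tnc, the matrix protein tenascin C, was at 206, 449 and 578 TPM in Upf2 Cre and 217, 454 and 703 TPM in Upf2 Trp53 Cre cells, against 99.6, 213 and 331 TPM in mock cells, with overlap at the low end of the Cre groups.

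Of the 44 lists, that of astrocyte markers held the most shared falls on TPM as deposited. Of 10 tested astrocyte markers 5 fell, none rose and 4 moved alike, with a median of -0.66, the gap junction gene Gja1 and the glutamate transporter gene Slc1a2 among them. Gja1 was at 14.5, 18.4 and 37.4 TPM in Upf2 Cre and 14.7, 28.5 and 35.4 TPM in Upf2 Trp53 Cre cells, against 37.1, 66.0 and 115 TPM in mock cells. Only Upf2 Cre replicate 3 reached above the lowest mock library, and Gja1 fell by 1.45 ± 0.23 (SE, limma adjusted p = 1.9e-04). Slc1a2 fell by 0.76, and after the GC correction it differed by -0.48 (limma adjusted p = 0.12). Then 2 of the 10 markers fell, and of the 4 that moved alike Gja1 alone still passed. With that correction other lists held more shared falls, with 7 cytosolic ribosomal protein genes and 5 respiratory chain genes, against 2 astrocyte markers. The summed level of the 11 listed astrocyte markers averaged 2647 TPM in Upf2 Cre and 1530 TPM in Upf2 Trp53 Cre cells, against 2509 TPM in mock cells, so that the sum was below mock in Upf2 Trp53 Cre cells alone.

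Of 18 radial glial markers 4 fell, 1 rose and 2 moved alike, 1 downward and Tnc upward. Their summed level averaged 6458 TPM in Upf2 Cre and 7730 TPM in Upf2 Trp53 Cre cells, against 11121 TPM in mock cells. The glutamate transporter gene Slc1a3 fell by 1.13 but by unequal amounts, with -1.54 in Upf2 Cre cells and -0.72 in Upf2 Trp53 Cre cells. The progenitor regulators Sox2 (-0.43, limma adjusted p = 0.062) and Pax6 (-0.55, adjusted p = 0.099) did not pass the test. Sox2 was at 102, 131 and 151 TPM in Upf2 Cre and 118, 150 and 228 TPM in Upf2 Trp53 Cre cells, against 116, 215 and 252 TPM in mock cells, with wide overlap. Both passed when single libraries were left out: Sox2 without Upf2 Cre replicate 3 (-0.45, adjusted p = 0.037), Upf2 Trp53 Cre replicate 3 (-0.48, adjusted p = 0.032) or mock replicate 8 (-0.58, adjusted p = 0.0096), and Pax6 without Upf2 Cre replicate 3 (-0.64, adjusted p = 0.029) or mock replicate 8 (-0.76, adjusted p = 0.018). Without the 3 libraries numbered 3, Sox2 differed by -0.46 (adjusted p = 0.029) and Pax6 by -0.53 (adjusted p = 0.025). With median-ratio scaling Sox2 also passed (-0.42, adjusted p = 0.045).

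Of 10 tested neuron markers 4 rose and 1 fell. Tubb3, a neuronal tubulin gene, moved alike at 1.07 (limma adjusted p = 0.019), with 40.3, 68.2 and 168 TPM in Upf2 Cre and 76.2, 102 and 108 TPM in Upf2 Trp53 Cre cells, against 23.7, 37.8 and 108 TPM in mock cells. The call depended on the libraries and the processing. It was lost without mock replicate 4 (0.95, adjusted p = 0.057), replicate 5 (0.92, adjusted p = 0.060) or replicate 6 (0.92, adjusted p = 0.059), and GC-corrected the value was 0.63 (adjusted p = 0.10). Without the 3 libraries numbered 3 the difference was larger (1.44, adjusted p = 5.6e-04). Nefm rose by 1.04 with a larger rise in Upf2 Trp53 Cre cells, and Map2 fell by 0.66. GC-corrected, Nefm differed by 0.60.

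Markers of other cell types reached the filter to differing extents. Of 11 microglia and macrophage markers only Cd68, a lysosomal protein gene, was tested, and it rose by 1.14. The summed level of the 11 ran between 7.22 and 17.2 TPM in Upf2 Cre, 11.5 and 20.3 TPM in Upf2 Trp53 Cre and 4.74 and 6.82 TPM in mock libraries. Cx3cr1 was at most 0.043 TPM in any library. Of 11 vascular and mural markers only the smooth muscle actin gene Acta2 was tested, and it rose by 1.62. The summed level of those 11 averaged 9.81 TPM in Upf2 Cre and 16.6 TPM in Upf2 Trp53 Cre cells, against 3.99 TPM in mock cells. Ependymal markers rose in 3 of 5 tested, none of them alike, with a summed mean of 136 TPM in Upf2 Cre, 48.0 TPM in Upf2 Trp53 Cre and 45.6 TPM in mock cells. Of 5 tested intermediate progenitor markers 1 rose, Gadd45g, and of 2 tested interneuron markers 1 rose, not alike. None of the 7 oligodendrocyte lineage and 2 fibroblast markers tested passed limma's test, and 1 of each had an unadjusted p under 0.05. After the GC correction 2 of the 7 fell. The summed level of the 10 listed oligodendrocyte lineage markers was high, at means of 3293 TPM in Upf2 Cre, 2499 TPM in Upf2 Trp53 Cre and 2885 TPM in mock cells. The part of these cell types in the gene groups above was not tested.

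In several lists, genes passed the pooled test without moving alike. Interferon response genes rose in 14 of 23 tested and fell in none, with a pooled median of 1.00, yet only 2 moved alike, Ifi35 (1.03) among them. Their median was 0.07 in Upf2 Cre cells and 1.47 in Upf2 Trp53 Cre cells. Isg15, a ubiquitin-like interferon product, was at 1.59, 4.74 and 5.80 TPM in Upf2 Cre and 41.6, 74.6 and 96.6 TPM in Upf2 Trp53 Cre cells, against 0.655, 1.26 and 2.87 TPM in mock cells. The Cre groups did not overlap each other, and their difference was 3.71. Of 13 nucleic acid sensing genes 4 rose, and Adar, an RNA editing enzyme gene, and Rnf135 moved alike at 0.94 and 0.80. Of 17 genes of MHC class I presentation 8 rose and 2 moved alike, against 3 and none after the GC correction.

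Targets of p53 split in the same way but in the other direction. Of 39 tested, 8 rose and 6 fell, with a median of 0.64 in Upf2 Cre cells and -0.43 in Upf2 Trp53 Cre cells. The kinase gene Plk3 (1.05; GC-corrected 0.58, limma adjusted p = 0.0061) and the ribosomal protein-like gene Rps27l (-0.83; GC-corrected -0.51, adjusted p = 0.023) were the 2 that moved alike. Cdkn1a, the arrest gene p21, was at 489, 1286 and 1575 TPM in Upf2 Cre and 37.5, 51.5 and 127 TPM in Upf2 Trp53 Cre cells, against 98.3, 184 and 331 TPM in mock cells. The pooled difference of 0.35 (limma adjusted p = 0.36) joins 2.46 in Upf2 Cre to -1.76 in Upf2 Trp53 Cre cells. Mdm2, the p53 antagonist, likewise did not pass (0.29, adjusted p = 0.24), although it did GC-corrected (0.54, adjusted p = 0.032). Eda2r and Ccng1 fell in the pooled comparison by 1.69 and 1.15 through Upf2 Trp53 Cre cells alone, in which they differed by -3.48 and -2.94 from mock, against 0.10 and 0.64 in Upf2 Cre cells. With the 12 Cre libraries as 1 group neither passed (limma adjusted p = 0.094 for Eda2r and 0.26 for Ccng1).

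Among growth and division genes few changes were shared. Of the 40 listed for G2 and M phase, 17 fell and none rose, with a median of -1.03 in Upf2 Cre cells and -0.10 in Upf2 Trp53 Cre cells, and 1 moved alike. Of the 48 listed for DNA replication and the G1/S transition, 7 fell, a share near that of all tested genes, none alike. Without the 3 libraries numbered 3, 30 of the 40 and 32 of the 48 fell. The proliferation marker Mki67 did not pass the pooled test (-0.53, limma adjusted p = 0.10), and did so without Upf2 Cre replicate 4 (-0.64, adjusted p = 0.037) or mock replicate 3 (-0.76, adjusted p = 0.013), and without all 3 libraries numbered 3 (-0.69, adjusted p = 0.010). The cyclin gene Ccnd1 was at 750, 1520.5 and 1878 TPM in Upf2 Cre and 476, 1102 and 1355 TPM in Upf2 Trp53 Cre cells, against 30.4, 825 and 1007 TPM in mock cells. Its mock value of 30.4 was that of replicate 3, and its difference of 1.26 did not pass (adjusted p = 0.078). It passed without Upf2 Cre replicate 3 (1.35, adjusted p = 0.048), and without all 3 libraries numbered 3 it was 0.66 (adjusted p = 4.0e-04). Of 15 genes of D cyclins and growth signalling 1 rose and 3 fell, and Cdkn1c, an imprinted cell cycle inhibitor gene, was the only one that moved alike, at -1.41 (limma adjusted p = 0.013).

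Of 80 cytosolic ribosomal protein genes, 40 fell and 2 rose, with a median of -0.97 in Upf2 Cre cells and -0.24 in Upf2 Trp53 Cre cells. Of them 2 moved alike downward and Rps10 upward at 0.96, although GC-corrected it differed by 0.46 (limma adjusted p = 0.13). Reads of these genes can be shared with many processed copies, so single members are uncertain. Of 56 nuclear genes of the respiratory chain 22 fell and 1 rose, and 2 moved alike. None of the 13 mitochondrially encoded mRNAs passed limma's test, and 1 had an unadjusted p under 0.05. Under median-ratio scaling 1 of them fell.

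**Figure D5:**
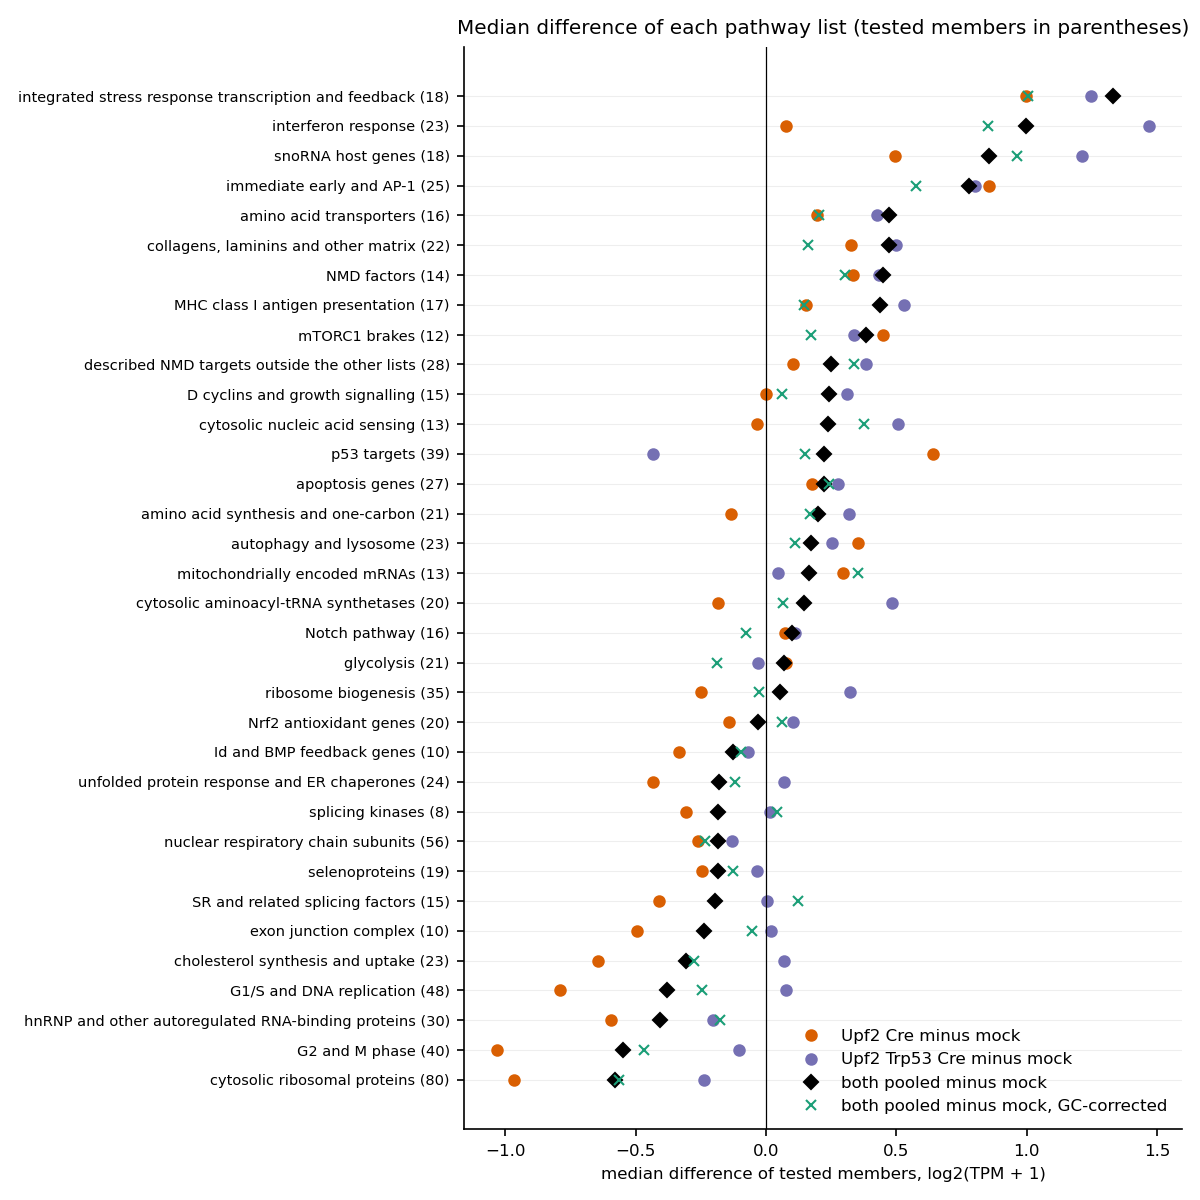
Median difference from mock of the tested members of 34 pathway lists (number tested in parentheses) on log2(TPM + 1), for Upf2 Cre, Upf2 Trp53 Cre, both pooled, and both pooled after the GC correction. The stress response, snoRNA host and immediate early lists lie above 0 in both Cre groups, the interferon list is high in Upf2 Trp53 Cre cells alone (1.47 against 0.07), and the p53 list has opposite signs.

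The remaining lists held few shared changes. Over all tested genes 15.8% rose and 12.2% fell, and 7.13% moved alike upward and 2.03% downward. Splicing regulators fell in 3 of 15 genes of the SR group, none alike, and in 9 of 30 of the hnRNP group, where 1 rose and 1 moved alike. Of 27 apoptosis genes 10 rose and 3 fell, with 2 alike upward and 1 downward. The caspase gene Casp9 was 1 of the 2 that moved alike upward, at 0.65 (GC-corrected 0.43, limma adjusted p = 0.013). After the GC correction 5 of the 27 rose and 3 fell. Of 21 glycolysis genes 5 rose and 3 fell, 1 alike, and of 23 cholesterol genes 6 fell, none alike. Of 19 selenoprotein genes 5 rose and 3 fell, and 1 moved alike, none after the GC correction. Jag1, a Notch ligand gene, was the 1 of 16 Notch genes that rose, at 0.82 (adjusted p = 0.052 with no filter on low values), and 1 of 10 Id and BMP genes fell. None of the 35 genes of ribosome biogenesis passed limma's test, with 7 at an unadjusted p under 0.05, and none of the 8 splicing kinase genes, with 1. With median-ratio scaling 1 gene of each fell.

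Features that the rule did not use are set here beside those of all tested genes, with no test. Genes with an annotated NMD transcript made up 32.4% of the upward protein-coding genes (319 of 985) and 19.5% of the downward ones (47 of 241), against 28.6% of all tested ones (3449 of 12059). An upstream reading frame was found by sequence in 40.1% of the upward and 39.4% of the downward genes, against 42.0% of all. Such a frame was any ATG with an in-frame stop within the 5′ UTR of a representative transcript, and not an annotated feature. The upward genes were shorter, with a median gene length of 15.9 kb, and the downward genes longer, at 30.8 kb, against 24.9 kb for all tested genes. Median transcript GC content was 55.4% in the upward and 45.1% in the downward genes, against 49.9% in all. By GC class, from lowest to highest, 15, 56, 127, 354 and 531 genes moved alike upward and 129, 104, 53, 16 and 7 downward. Processed pseudogenes were 1.11% of the upward and 15.2% of the downward genes, against 9.38% of all.

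The shares also varied by chromosome. On chromosome 11, where the median GC content was 52.1%, 127 of 1188 tested genes moved alike upward, 10.7%. On the X chromosome, where it was 46.5%, 11 of 535 did, 2.06%, and 4.49% moved alike downward. These shares describe the tested genes of each chromosome and were not tested.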

How the data were processed

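Total RNA libraries (Illumina TruSeq Stranded Total RNA, per the labels' protocols) of 18 cultures were measured in 3 groups of 6. The authors deposited 1 table of TPM per gene for 55573 genes, and each library sums to the same total. STAR and the build mm10 are named in the submitters' processing notes. The program that made the TPM values, its version and the annotation are not given in the sources used here. TPM keeps no read depth, so depth is unknown and no counting interval is given. TPM also excludes any absolute change of RNA per cell.

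Of the deposited gene IDs, 55480 matched GENCODE M21 (GRCm38, equal to mm10) without version numbers, which gave coordinates, biotypes and transcript GC content. Those that reached 1 TPM in 6 or more of the 18 libraries (15216 genes) were tested with limma 3.58.1 in R 4.3.3 on log2(TPM + 1): means of the 3 groups, the contrast of both Cre groups weighted equally against mock, empirical Bayes with a mean-variance trend and Benjamini-Hochberg adjustment at 0.05. Upf2 and Trp53 were tested with an exact permutation of 12 against 6 libraries (SciPy 1.17.1, smallest possible p 1.08e-04). On simulated data for the pooled comparison over 15216 genes, 8%, 88%, 100% and 100% of genes changed by 0.5, 1, 2 and 3 on the log2 scale were recovered. The simulation changed few genes, by equal amounts in both Cre groups, with noise drawn independently for each gene and library. It held no deviation shared across genes, such as the GC trend. Its rates therefore do not measure recovery in the real libraries.

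Alternatives were another pseudocount of 0.1, no filter, quantile normalization, median-ratio scaling, a filter on a mean of 5 TPM, no trend, a minimum change of 1.5-fold, a replicate block, the 12 Cre libraries as 1 group, stricter rules and thresholds, and leaving out each library or the 3 numbered 3. The GC correction, which removes from each library a spline (5 degrees of freedom) of log values on transcript GC content, also with the block, and rescaling without the abundant predicted gene Gm23935 (141092 TPM in Upf2 Cre replicate 6) were chosen after seeing the data.

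The comparison, the 44 gene lists and the named genes were chosen with earlier results of these data known, and no list was tested. Named genes were both targeted genes, the 12 largest rises and falls among genes that moved alike without overlap and averaged at least 5 TPM on their higher side (predicted genes passed over), up to 3 members of each pathway list that moved alike and up to 2 of each marker list with the smallest adjusted p, and a preset selection of stress, p53, interferon and progenitor genes. Other list members and genes at the edge of the rule were named after their values were seen. A further 31 list members past the test are given in their lists' counts only. They were left unnamed after their values were seen, 30 of them because a single library, the GC correction or the filter decided the call. Some genes that the rule names are not reported here. The Trp53 knockout that the design text mentions was not analysed here.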

Additional observations from a re-analysis of the deposited data

Results flagged for a closer look

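Among the 69 genes examined in each of the 3 groups, 207 combinations of gene and group, 30 held a library far from the other 5 (Dixon's criterion), 14.5%, where chance gives about 1 in 20. Of the 30, 24 were in a library numbered 3.

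In Upf2 Cre replicate 3 the outlying levels were 801 TPM for Snhg5, 322.6 TPM for Gas5, 106.2 TPM for Ddit3, 47.79 TPM for Trib3, 8.343 TPM for Pax6 and 5.997 TPM for Cdkn1c, each above the other 5 libraries. In Upf2 Trp53 Cre replicate 3 they were 809 TPM for Asns, 234.1 TPM for Trib3, 147.5 TPM for Ddit3, 127.3 TPM for Cdkn1a, 25.57 TPM for Ccng1, 11.28 TPM for Pax6 and 2.367 TPM for Eda2r, all high. In Upf2 mock replicate 3 high levels were found for Zfas1 (274.6 TPM), Gadd45g (180.3 TPM), Gas5 (174.4 TPM), Tubb3 (108.4 TPM), Slc44a1 (60.08 TPM), Cdkn1c (53.92 TPM), Tpbg (28.57 TPM) and Ifi35 (2.55 TPM). Low levels were found there for Atf4 (123.6 TPM), Ccnd1 (30.38 TPM) and Tnfrsf12a (2.992 TPM).

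Outside the libraries numbered 3, Upf2 Cre replicate 4 was high for Mki67 (139.3 TPM). Upf2 Trp53 Cre replicate 4 was high for Smg9 (123.3 TPM) and low for Ppp1r14c (21.16 TPM), and Upf2 Trp53 Cre replicate 8 was low for Ier2 (101.8 TPM). Upf2 mock replicate 8 was high for Cela1 (6.097 TPM) and Osgin1 (0.6926 TPM).

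For 13 of the 69 genes the difference from mock was not the same in the Cre groups by limma's test of Upf2 Trp53 Cre minus Upf2 Cre, at adjusted p under 0.05. It was higher in Upf2 Trp53 Cre cells for Isg15 (3.712), Trib3 (1.343), Asns (1.257), Nefm (1.063), Gadd45b (0.9706), Rassf1 (0.8791), Slc1a3 (0.821) and Upf2 (0.6999). It was lower there for Cdkn1a (-4.218), Eda2r (-3.587), Ccng1 (-3.578), Trp53 (-2.956) and Mdm2 (-0.8856). Of these, Gadd45b, Trib3 and Rassf1 had met the rule for moving alike.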

How the results depend on the processing

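No value past its test changed sign under any alternative run, and both targeted genes kept their side of the threshold: Upf2 ran from 1.04 to 1.27 with single libraries left out, past the test each time, and Trp53 from -1.27 to -0.94, never past it. The counts moved more. The main counts were 2406 rises and 1859 falls, 1085 and 309 of them alike. A minimum change of 1.5-fold left 182 rises and 14 falls, 134 and 4 of them alike, and an adjusted p under 0.01 left 1277 and 393, with 112 alike downward. Without the libraries numbered 3 there were 4017 and 3729, with 469 alike downward. Falls numbered 1113 with no filter (192 alike), 1060 with the 12 Cre libraries as 1 group, 2968 with the replicate block and 2859 with the GC correction and the block (564 alike). Falls that moved alike numbered 811 with median-ratio scaling, 796 with quantile normalization and 111 when each Cre group had to pass its own test. With the difference between the Cre groups limited to 0.25 of the pooled one, 649 rises and 107 falls moved alike. The GC correction gave 692 and 488.

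With single libraries left out, rises ran from 1760 to 3426 and falls from 886 to 3236, and those that moved alike from 940 to 1294 and from 144 to 710. Falls dropped to 945, 886, 962 and 1202 without mock replicates 4, 5, 6 and 9 and numbered 2998 without mock replicate 8 and 3236 without Upf2 Cre replicate 3. Falls that moved alike were 185, 163 and 193 without mock replicates 4, 5 and 6, 144 without Upf2 Trp53 Cre replicate 4, 710 without mock replicate 8 and 701 without Upf2 Trp53 Cre replicate 3. The cause was not tested.

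The replicate numbers are not stated to mark a shared litter or day. Same-numbered libraries of different groups deviated together, with a correlation over 0.1, in 14 of 18 pairs (from -0.17 to 0.74). Their median correlation was 0.33, against -0.11 for pairs with unlike numbers. Of 18 libraries 11 were closest to their own number. Whether the numbers mark a shared preparation was not tested. With a replicate block 3442 genes rose and 2968 fell, all 1394 genes that moved alike still did, Upf2 had an exact p of 0.0014 and Trp53 of 0.19. With the block Sox2 (adjusted p = 0.0093), Pax6 (0.0098), Ccnd1 (0.014), Mki67 (0.035) and Asns (0.048) also passed. Of 118 genes past the test that were examined singly, 29 lost the call without at least 1 library (up to 26 without mock replicate 4 or 5), 25 with the GC correction, 28 with no filter, 12 with the Cre libraries as 1 group, 88 with a minimum change of 1.5-fold and 1 with the block. The 87 named in the report were narrowed with these losses known, and so are no measure of stability: of them 2 lost the call without a library (Gas5 and Tubb3), 10 with the GC correction, 3 with no filter (Arc, Gas5 and Jag1) and Eda2r, Ccng1 and Gas5 with 1 Cre group. TPM gives no depth, so the precision of low genes is unknown.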
